A study of Rattus norvegicus with 5 samples.

Results

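Axon guidance genes were followed in the parietal cortex of rats with kaolin-induced neonatal hydrocephalus, on 5 two-colour Agilent arrays. The members are the ligands and receptors of the classical guidance families, chosen by name: every probe whose gene name in the array file starts with Sema, Plxn, Efna, Efnb, Epha, Ephb, Slit, Robo, Ntn or Unc5 (Slit and Ntn followed by a digit). That rule took 60 of 35737 gene names on the array, or 88 of 41012 probes, and used no measured value. Of these, 79 probes for 55 genes could be tested, out of 29114 tested probes in all. Testing required a signal that the scanner software flagged as well above background, in either channel, on 3 or more arrays. The 9 untested probes are those of Efna4, Efnb2, Epha2, Ntn1 and Unc5cl and 1 probe each of Epha1, Ephb2, Sema3g and Sema6d. One tested member, Unc50, meets the name rule without belonging to the Unc5 receptors, and is left out of that family below.

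Rat pups received kaolin or saline on postnatal day 1, and parietal cortex was taken on postnatal day 22, which is post-kaolin day 21. Kaolin is a clay that obstructs the flow of cerebrospinal fluid, so that the ventricles enlarge and the overlying cortex is stretched and thinned. Both groups stayed with the dam until then, and no strain, sex or transgene is given for either. Total RNA of a kaolin sample was labelled with Cy3 and hybridised together with that of a saline sample in Cy5, which makes 5 samples in each group and 5 direct ratios. No array had the dyes exchanged, so dye and treatment cannot be told apart. The labels do not say that each sample was a single animal, so p-values measure only the spread between arrays, which may be technical.

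Guidance ligands steer growing axons by attracting or repelling the growth cone. Semaphorins act through plexins, ephrins through Eph receptor tyrosine kinases, Slits through Robo receptors, and netrins through Dcc and the Unc5 receptors. After the main tracts have formed, the same molecules take part in dendrite growth, synapse formation and pruning, vessel growth and the responses of glia to injury.

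Depending on the array, 27956 to 29385 probes stood well above background for kaolin and 27372 to 28930 for saline. Median raw spot signals were 95.8 to 117.03 for kaolin and 152 to 189 for saline. Replicates 1 to 4 were on one slide and replicate 5 on another. Replicate 2 stood apart: across the 29114 tested probes its log2 ratios correlated with those of replicate 1 at r = -0.37, and across all 41012 probes at r = -0.325. Its correlations with replicates 3, 4 and 5 over tested probes were weaker, at r = -0.172, -0.0676 and -0.0617. The other pairs of replicates without replicate 2 had r between 0.121 and 0.825 over tested probes. The labels give the same dyes for every array, so the direction of replicate 2 was kept, and results without it are given where they differ. Its sign was also turned as a further check. Neuronal markers were present, with 10 of 10 well above background in both channels on all 5 arrays, as were 8 of 8 tested markers of hippocampal and striatal neurons. These markers do not tell parietal cortex from other brain regions.

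No guidance gene passed the test across all genes. At an adjusted p under 0.05 (limma, Benjamini-Hochberg over tested probes), 0 of 79 member probes and 0 of 29114 tested probes were called (0%), and the smallest adjusted p was 0.243 in both sets. At an unadjusted p under 0.05 there were 6 of 79 member probes (7.59%), against 18.1% of all tested probes. Of them, 1 of 79 member probes was higher in kaolin (1.27%), against 8.82% of all. In the other direction 5 of 79 were lower (6.33%), against 9.32% of all. The probe that was higher belongs to Sema3b, and the probes that were lower belong to Slit2 (2 probes), Sema6a (2 probes) and Ntn3. Only 5 of 79 had the same sign on all 5 arrays (6.33%, against 12.9% of all). They were Efna1 and Sema4c, higher (2.53%, against 6.23% of all), and Slit2, Sema4a and Sema4g, lower (3.8%, against 6.64% of all), each by 1 probe. Within the slide of replicates 1 to 4 no member passed either, and the means were 0.37 for Sema3b, -0.28 and -0.24 for Slit2, -0.47 and -0.42 for Sema6a and -0.41 for Ntn3.

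Differences of guidance genes were small, and more of them lay below 0 than above it. The median size of the mean log2 ratio, regardless of sign, was 0.09 over the 79 member probes and 0.12 over all tested probes, with the same median SD over arrays, 0.21. The mean was below 0 for 53 of 79 member probes (67.1%), against 50.8% of all tested probes, and above 0 for 26 (32.9%), against 49.2%. The median of the means was -0.06 for the members and -0.0034 for all. With median centring in place of loess the median of all tested probes itself moved to -0.10 and that of the members to -0.15, and 45 of 79 members lay below the median of all.

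**Figure D1:**
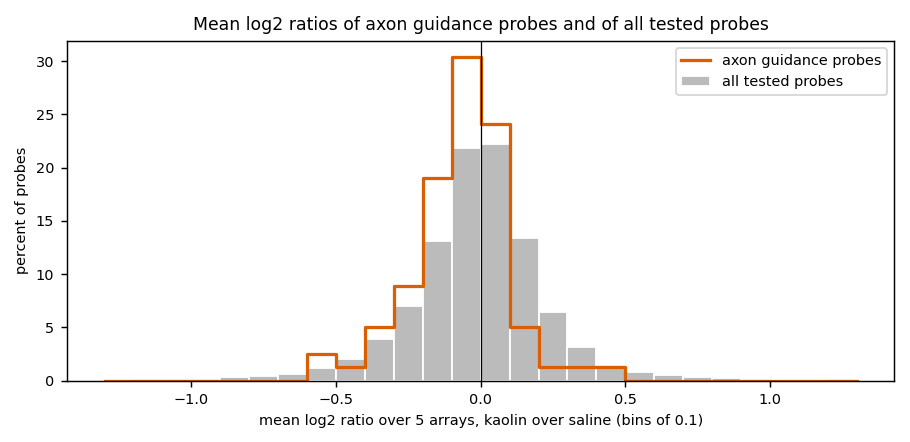
Mean log2 ratio of kaolin over saline over 5 arrays (horizontal axis, bins of 0.1) against the percent of probes in each bin. Grey bars are the 29114 tested probes and the orange line the 79 axon guidance probes. The orange line is shifted slightly to the left, with a median of -0.06 against -0.0034, and does not reach the ends of the grey distribution.

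Promoters are shown for 2 genes that stood on opposite sides of 0, the ephrin Efna1, one of the members higher on every array under the main processing, and the netrin Ntn3, a member with an unadjusted p under 0.05 in the lower direction. Each line is the 250 bases before the annotated start on GRCr8, written along the gene's strand, with the GC box GGGCGG on either strand in capitals. Efna1 lies on the minus strand at chr2:176986822-176987071 and Ntn3 on the minus strand at chr10:13744556-13744805.
Efna1: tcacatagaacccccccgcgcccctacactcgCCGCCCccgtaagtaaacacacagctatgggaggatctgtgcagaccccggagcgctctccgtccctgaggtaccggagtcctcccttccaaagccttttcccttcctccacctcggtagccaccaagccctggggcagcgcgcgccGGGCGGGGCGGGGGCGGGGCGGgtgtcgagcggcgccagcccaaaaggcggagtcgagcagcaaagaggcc
Ntn3: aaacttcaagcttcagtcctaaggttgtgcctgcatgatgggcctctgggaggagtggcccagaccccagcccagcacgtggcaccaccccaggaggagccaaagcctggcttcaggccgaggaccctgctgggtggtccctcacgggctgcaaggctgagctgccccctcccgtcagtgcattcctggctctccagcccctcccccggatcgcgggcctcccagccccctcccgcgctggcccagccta
Efna1 held 5 GC box matches, overlapping ones included, and 23 CpG dinucleotides, and Ntn3 held 0 and 9. RefSeq gave promoters for 47 of the 60 member symbols. The GC box was in 27 of those 47 (57.4%), in 54.8% of the promoters of 9796 genes tested on the array, and in 30.5% of all 33469 promoters of the same length. CCAAT was in 15 of 47 (31.9%, against 35.3% of tested genes), and TATAAA in 0 of 47, against 8.06% of tested genes. Both strands were searched for each motif, and a match is a description of letters only.

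Slit2, a secreted ligand of Robo receptors that repels axons, had a mean below 0 by both tested probes, short of the adjusted threshold. Its probe at chr14:67546838-67546897 (rn4, the build of the array file) had log2 ratios of -0.36, -0.11, -0.42, -0.23 and -0.40 on replicates 1 to 5. All of them lay below 0, the mean was -0.30 ± 0.13 (SD, n = 5), a fold of 0.81, and limma gave an unadjusted p of 0.00475 and an adjusted p of 0.243. The brighter probe, at chr14:67548352-67548411, had -0.55, 0.02, -0.36, -0.06 and -0.57. It was near 0 on replicates 2 and 4, with the same mean of -0.30 ± 0.27 (n = 5; limma adjusted p = 0.247). Median centring moved the value of the brighter probe to -0.52. A further Slit2 probe, listed in the array file under another name, was not well above background often enough to be tested and had a mean of 0.04 ± 0.13 (n = 5).

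The other Slits were not separated from 0. Slit3 had -0.31, 0.28, -0.42, -0.07 and -0.27, below 0 on 4 arrays and above it on replicate 2, with a mean of -0.16 ± 0.28 (n = 5). Slit1 had -0.18, 0.18, -0.31, -0.37 and 0.48, spread on both sides of 0 with a mean of -0.04 ± 0.36 (n = 5), and its second probe had a mean of 0.09. All 3 Slit genes had means below 0 by their brightest probe, with a family median of -0.16, but the sign of Slit1 turned under 4 of 17 alternatives.

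Among the Slit receptors, Robo2 gave -0.48, 0.26, -0.54, -0.37 and -0.05, with a mean of -0.23 ± 0.34 (n = 5; limma adjusted p = 0.348). Replicate 2 was again the array on the other side of 0, and a second Robo2 probe had a mean of -0.05. Robo1 gave -0.13, 0.20, 0.0067, -0.15 and -0.06, a mean of -0.03 ± 0.14 (n = 5). Robo4, the family member of endothelial cells, gave -0.13, 0.19, -0.02, 0.14 and 0.02, a mean of 0.04 ± 0.13 (n = 5). Neither differed from 0 beyond its spread. Robo3, which controls the crossing of the midline, was dim, with a mean of -0.24 ± 0.38 (n = 5). With an offset of 0 in place of 50 the mean was -0.56 ± 0.90 (n = 5). On the software's processed signals, which also differ in background correction and normalization, the values were 0.43, 0.45, -3.89, -1.05 and -1.17, a mean of -1.05 ± 1.77 (n = 5). Replicate 3 carried most of that, and the mean of the other 4 arrays was -0.34 ± 0.90 (n = 4).

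Sema6a, a transmembrane semaphorin that signals through A-type plexins, differed between its own probes. The probe at chr18:41543320-41543379 gave -0.80, 0.10, -0.63, -0.56 and -0.79, a mean of -0.54 ± 0.37 (n = 5; limma unadjusted p = 0.00622, adjusted p = 0.243). Its neighbour at chr18:41543800-41543859 gave -0.65, 0.08, -0.63, -0.46 and -0.48, a mean of -0.43 ± 0.30 (n = 5; limma unadjusted p = 0.00769, adjusted p = 0.243). Both were well below 0 on 4 arrays and slightly above it on replicate 2. The brightest probe, at chr18:41545652-41545711, gave -0.33, 0.66, -0.06, 0.03 and -0.34, a mean of -0.0067 ± 0.41 (n = 5). The remaining probe, at chr18:41547237-41547296, gave -0.33, 0.09, -0.03, -0.05 and -0.25, a mean of -0.11 ± 0.17 (n = 5). The mean of the pair at lower coordinates minus that of the pair at higher coordinates was -0.40, -0.29, -0.58, -0.50 and -0.34 on replicates 1 to 5. It was negative on every array, replicate 2 included, with a mean of -0.42 ± 0.12 (n = 5). This difference was picked out after its values were seen and was not tested.

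Without replicate 2, the first of these Sema6a probes had a mean of -0.70 and the second -0.56, each with a limma adjusted p of 0.0403. Together with a probe of Unc5d they were then the 3 member probes past the threshold, 3.8% of members against 5.28% of the 29113 probes tested without that array. All 3 were lower, as were 2.82% of all probes, while 0 members and 2.46% of all were higher.

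**Figure D2:**
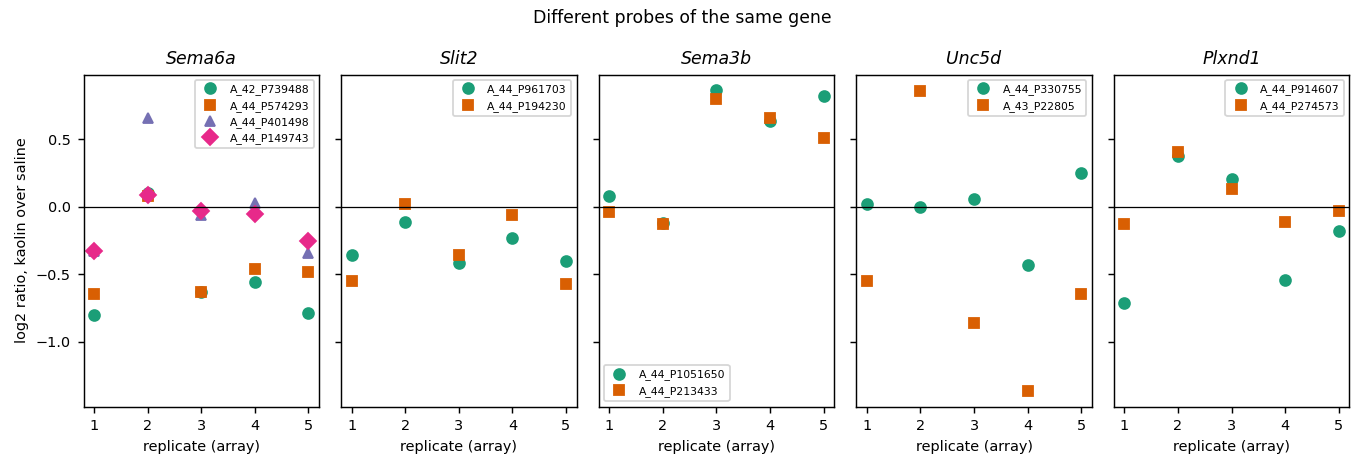
Log2 ratio of kaolin over saline (vertical axis) on each replicate (horizontal axis) for the tested probes of 5 genes. Points are single arrays, with colour and shape marking the probe. For Slit2 and Sema3b the probes ran close together, while for Sema6a and Unc5d they lay apart on most arrays.

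Sema3b, a secreted class 3 semaphorin that binds neuropilin and plexin complexes, was the highest of the guidance genes. Its brightest probe gave 0.08, -0.12, 0.87, 0.64 and 0.82, a mean of 0.46 ± 0.45 (n = 5), a fold of 1.37, with a limma unadjusted p of 0.027 and an adjusted p of 0.246. A second probe gave -0.04, -0.13, 0.80, 0.66 and 0.51, a mean of 0.36 ± 0.42 (n = 5; limma adjusted p = 0.279). In both, replicates 3, 4 and 5 were high and replicates 1 and 2 near 0. Markers of reactive astrocytes, microglia and ependyma were high on the same 3 arrays, and those of meninges on replicates 3 and 5. The median over 7 tested reactive astrocyte markers was 0.04, -0.04, 2.57, 2.14 and 2.61, and all 7 had means above 0. Over 9 tested microglial markers it was -0.11, 0.08, 2.10, 1.35 and 1.57, with 9 of 9 means above 0. Over 6 ependymal markers it was 0.19, -0.18, 0.69, 0.95 and 0.50, with 5 of 6 means above 0. Over 9 meningeal markers it was -0.54, -0.17, 0.87, -0.03 and 0.68. The summed marker signal was 6529 to 63171 in kaolin and 5995 to 9294 in saline for reactive astrocytes, 20130 to 94591 and 17528 to 21526 for microglia, 1255 to 4105 and 1504 to 2156 for ependyma, and 21808 to 57585 and 24614 to 36357 for meninges. No tested marker of these lists was at background. Their part in the Sema3b values was not tested. In bulk tissue a change in the number of cells of a type and a change in RNA per cell cannot be told apart.

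The other class 3 semaphorins stayed near 0. Sema3a, a repellent of cortical axons, gave -0.31, 0.07, -0.31, 0.10 and -0.17, a mean of -0.12 ± 0.20 (n = 5). Sema3f, which acts through neuropilin-2 and restrains dendritic spines, gave -0.13, 0.05, -0.50, -0.14 and -0.02, a mean of -0.15 ± 0.21 (n = 5). Both spanned 0. Sema3c, Sema3d, Sema3e and Sema3g had means of 0.03 to 0.08, and the median over the 7 class 3 genes was 0.07.

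Class 4 semaphorins are membrane-bound, and several are ligands of B-type plexins. Sema4a gave -0.09, -0.17, -0.07, -0.15 and -0.29, below 0 on every array with a mean of -0.15 ± 0.09 (n = 5; limma adjusted p = 0.281). Sema4c gave 0.04, 0.12, 0.16, 0.32 and 0.13, above 0 on every array with a mean of 0.16 ± 0.10 (n = 5; limma adjusted p = 0.286), and 0.38 on the processed signals. These were narrow differences, each of one sign over the 5 arrays. Sema4g gave -0.47, 0.14, -0.37, -0.62 and -0.04 by its brightest probe, a mean of -0.27 ± 0.32 (n = 5). Its dimmer probe was below 0 on every array but by little, with a mean of -0.06 ± 0.06 (n = 5). On the processed signals that probe gave -0.03, 0.14, 0.11, -0.19 and -0.18, so the single sign was lost.

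Sema4d, made by oligodendrocytes in the brain, gave -0.11, 0.09, -0.03, 0.14 and -0.47, a mean of -0.08 ± 0.24 (n = 5). Sema7a, a lipid-anchored semaphorin, gave -0.15, -0.01, -0.33, 0.18 and -0.70, a mean of -0.20 ± 0.33 (n = 5). For both, replicate 5 was the lowest array. Sema5a gave -0.09, -0.14, -0.15, 0.05 and -0.38, a mean of -0.14 ± 0.15 (n = 5), also lowest on replicate 5, and its second probe had a mean of 0.02. Over 20 semaphorin genes, 8 means were above 0 and 12 below, with a median of -0.05.

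Plexins, the semaphorin receptors, were 8 genes with 3 means above 0 and 5 below, and a median of -0.12. Plxna2, a receptor of Sema6a, was the lowest with -0.46, 0.20, -0.73, -0.39 and -0.07, a mean of -0.29 ± 0.36 (n = 5; limma adjusted p = 0.302). Its other probes had means of -0.15 and -0.09, so that all 3 were on the same side. Plxnb2 was the highest with -0.25, 0.20, 0.47, 0.28 and 0.66, a mean of 0.27 ± 0.34 (n = 5; limma adjusted p = 0.304). It was above 0 on every array except replicate 1, but only 0.14 under median centring. Plxnb3, a plexin of oligodendrocyte-lineage cells, gave 0.02, 0.10, -0.35, -0.39 and -0.43, a mean of -0.21 ± 0.25 (n = 5; limma adjusted p = 0.318). It was near 0 on replicates 1 and 2 and lower on replicates 3, 4 and 5.

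The remaining plexins varied by array without a shared direction. Plxna3 gave -0.19, 0.20, -0.17, -0.18 and -0.12, a mean of -0.09 ± 0.17 (n = 5). Plxna4, a receptor partner of class 3 semaphorins, gave -0.19, 0.40, -0.08, -0.06 and 0.22, a mean of 0.06 ± 0.25 (n = 5). For both of these A-type plexins replicate 2 was the highest array. Plxnb1, a receptor of Sema4d, gave -0.03, 0.44, 0.11, -0.02 and -0.14, a mean of 0.07 ± 0.22 (n = 5). Plxnc1, the receptor of Sema7a, gave -0.44, -0.27, 0.09, -0.17 and 0.06, a mean of -0.15 ± 0.22 (n = 5). Plxnd1, the receptor of Sema3e, gave -0.71, 0.38, 0.21, -0.54 and -0.18, a mean of -0.17 ± 0.47 (n = 5). Each of these last 3 had another probe whose mean was of the opposite sign (-0.09, 0.07 and 0.06). Plxna1 had no probe under the name rule and is not analysed here.

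**Figure D3:**
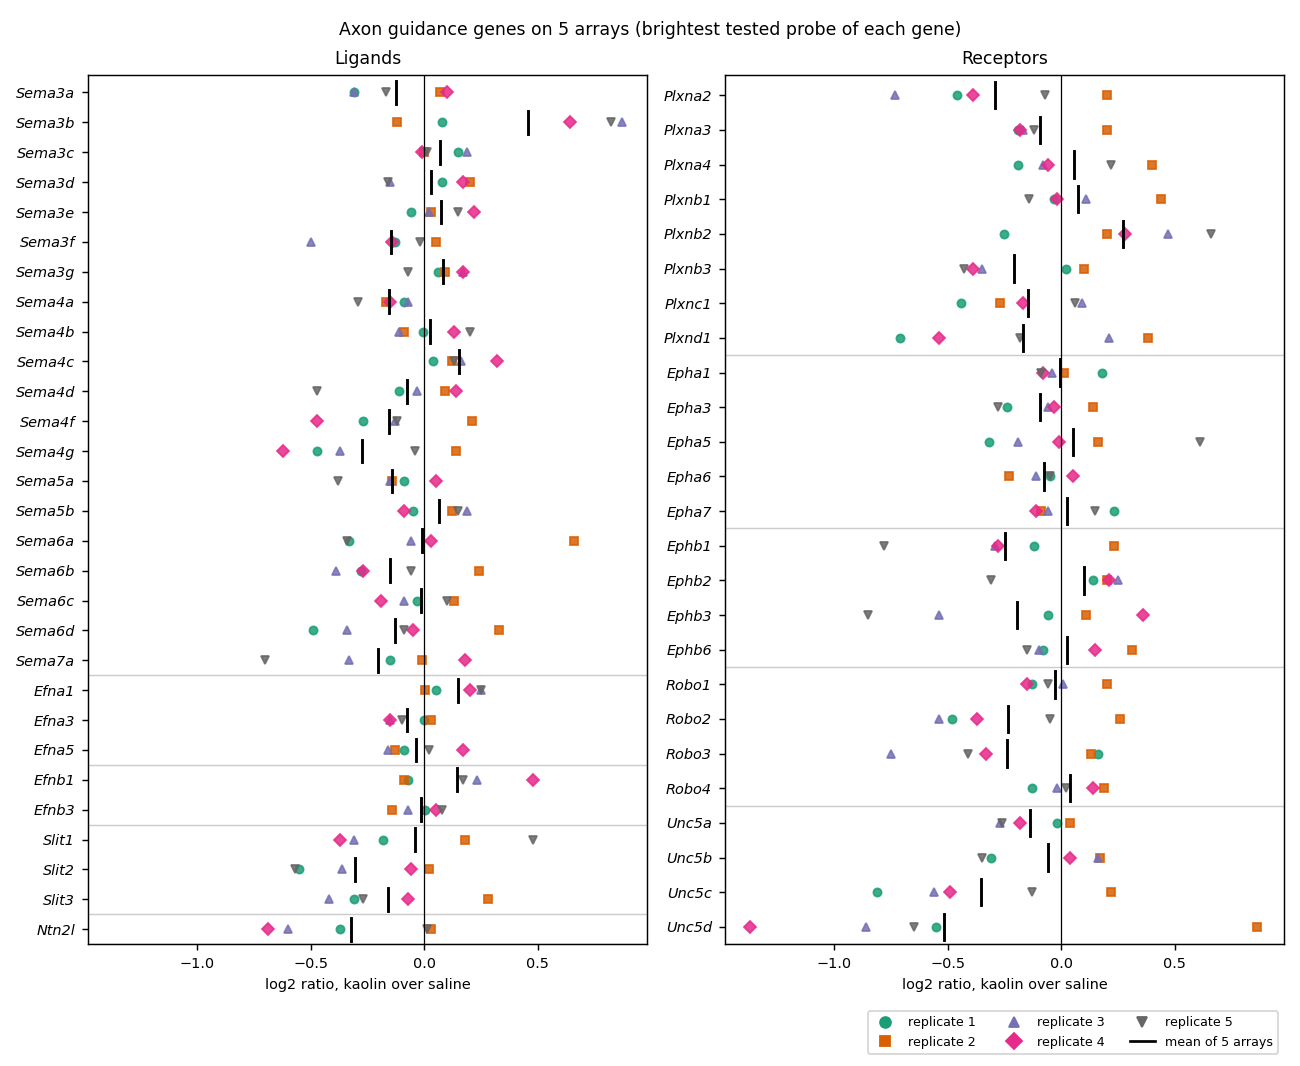
Log2 ratio of kaolin over saline (horizontal axis) on each of 5 arrays for 54 guidance genes by their brightest tested probe, ligands on the left and receptors on the right, with families separated by grey lines. Coloured symbols are replicates and the black bar is their mean. Most bars lie within 0.3 of 0, and the orange squares of replicate 2 often lie to the right of the other symbols.

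Ephrins are membrane-bound ligands, ephrin-A lipid-anchored and ephrin-B transmembrane, and they signal in both directions at cell contacts. Efna1 gave 0.05, 0.002, 0.25, 0.20 and 0.25, above 0 on every array though barely on replicate 2, with a mean of 0.15 ± 0.12 (n = 5; limma adjusted p = 0.3), and 0.34 on the processed signals. Under median centring Efna1 gave -0.03, -0.01, 0.16, 0.16 and 0.24, a mean of 0.10 ± 0.12 (n = 5), so the single sign was lost. Efna3 gave -0.0023, 0.03, -0.15, -0.15 and -0.10, a mean of -0.08 ± 0.08 (n = 5). Efna5, which patterns topographic maps, was dim and gave -0.09, -0.13, -0.16, 0.17 and 0.02, a mean of -0.04 ± 0.14 (n = 5). Thus 1 of 3 tested ephrin-A genes had a positive mean, and the sign of Efna5 turned under 6 of 16 alternatives. Efnb1 gave -0.07, -0.09, 0.23, 0.48 and 0.17, higher on replicates 3, 4 and 5, a mean of 0.14 ± 0.24 (n = 5). Efnb3, a midline barrier ligand, gave 0.0026, -0.14, -0.07, 0.05 and 0.08, a mean of -0.01 ± 0.09 (n = 5).

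EphA receptors, which bind ephrin-A, lay close to 0, with a median of -0.0026 over 5 genes, and that median changed sign with the processing. Epha3 was the lowest with -0.24, 0.14, -0.06, -0.03 and -0.28, a mean of -0.10 ± 0.17 (n = 5). Epha5, abundant in forebrain neurons, gave -0.32, 0.16, -0.19, -0.01 and 0.61, a mean of 0.05 ± 0.36 (n = 5), with replicate 5 alone clearly above 0. Epha7 gave 0.23, -0.09, -0.06, -0.11 and 0.15, a mean of 0.02 ± 0.15 (n = 5). The second probes of Epha5 and Epha7 had means of -0.09 and -0.18, opposite to the first.

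Among EphB receptors, which bind ephrin-B and organise excitatory synapses, Ephb1 gave -0.12, 0.23, -0.29, -0.28 and -0.78, a mean of -0.25 ± 0.36 (n = 5; limma adjusted p = 0.348). Ephb2 gave 0.14, 0.20, 0.25, 0.21 and -0.31, a mean of 0.10 ± 0.23 (n = 5). Its second tested probe gave -0.22, -0.10, -0.11, 0.10 and 0.05, with a mean of the opposite sign, -0.05 ± 0.13 (n = 5). Ephb3 gave -0.06, 0.11, -0.54, 0.36 and -0.85, a mean of -0.20 ± 0.49 (n = 5). In all 3 replicate 5 was the lowest array by the brightest probe, but not by the second Ephb2 probe. The family median over the brightest probes of 4 genes, Ephb6 included, was -0.55 there, against -0.20 to 0.21 on the other arrays. Replicate 5 was also the array on which the median of 9 oligodendrocyte markers was lowest, -0.65, against -0.04 to 0.23 on the others. Among these markers Cldn11 went the other way, at 0.52 on replicate 5. Medians of oligodendrocyte precursor and endothelial markers were lowest there too. Both were -0.12, against 0.08 to 0.27 and -0.11 to 0.20 on the other arrays. The summed oligodendrocyte signal was 133929 to 235728 in kaolin and 246659 to 275234 in saline, and 9 of 9 markers were well above background in both channels on all arrays. Their part in the EphB, Sema4d and Sema7a values was not tested. Replicate 5 is alone on its slide, so slide and sample cannot be told apart for it. Ephb4 had no probe under the name rule and is not analysed here.

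Netrins were represented by Ntn3, listed on the array under its older name Ntn2l, since Ntn1 was not well above background on any array. Ntn3 gave -0.37, 0.03, -0.60, -0.69 and 0.01, a mean of -0.32 ± 0.34 (n = 5), a fold of 0.798, with a limma unadjusted p of 0.0401 and an adjusted p of 0.262. It was lower on replicates 1, 3 and 4 and at 0 on replicates 2 and 5.

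Unc5 receptors, which turn netrin from an attractant into a repellent, had means below 0 in all 4 tested genes under the main processing, with a median of -0.24. Unc5c gave -0.81, 0.22, -0.56, -0.49 and -0.13, a mean of -0.35 ± 0.41 (n = 5; limma unadjusted p = 0.0504, adjusted p = 0.276). Unc5d, found in cortical layer neurons, gave -0.55, 0.86, -0.86, -1.37 and -0.65, a mean of -0.52 ± 0.83 (n = 5; limma adjusted p = 0.355). Both were lower on 4 arrays and higher on replicate 2. Without replicate 2 the mean of Unc5d was -0.86, with a limma adjusted p of 0.042. Its second probe, 265653 bases apart including both probes, gave 0.02, 0.00053, 0.06, -0.43 and 0.25, a mean of -0.02 ± 0.25 (n = 5), so the lower value rests on 1 probe.

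Unc5a gave -0.02, 0.04, -0.27, -0.18 and -0.26, a mean of -0.14 ± 0.14 (n = 5). Unc5b, the endothelial member, gave -0.31, 0.17, 0.16, 0.04 and -0.35, a mean of -0.06 ± 0.25 (n = 5), and its sign changed under 2 of 17 alternatives. Unc50, which is no netrin receptor, gave 0.52, -0.35, 0.19, 0.21 and 0.01, a mean of 0.12 ± 0.32 (n = 5).

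Probe means of one gene often lay on both sides of 0. Of 21 guidance genes with several tested probes, 10 had means of 1 sign and 11 of both signs, and 34 genes had a single tested probe. The gaps between probe means in those 11 genes were 0.06 to 0.22. Slit2 and Sema3b had means of 1 sign over both of their tested probes, with gaps between probe means of 3.1e-05 and 0.10. On single arrays the Slit2 probes lay further apart than their means. They gave -0.55 and -0.36 on replicate 1 and 0.02 and -0.11 on replicate 2. Sema6a and Unc5d had the widest gaps, 0.53 and 0.50. The sign of the brightest probe held under every alternative processing for 35 of 55 genes. Neither this share nor that of genes with both signs was computed over all genes on the array. Neither is thus a result particular to guidance genes.

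Many guidance probes had the opposite sign on replicate 2. Of 79 member probes, 22 were negative on replicates 1, 3, 4 and 5 and positive on replicate 2 (27.8%), against 12.2% of all tested probes. The reverse pattern held for 2 (2.53%), 1 probe each of Sema3b and Unc50, against 12.2% of all. The 22 included Slit2, Slit3, Robo2, Unc5a, Unc5c, Unc5d, Plxna2, Plxna3, Sema6b and Sema6d, among others. The median over member probes was -0.13, 0.09, -0.11, -0.04 and -0.06 on replicates 1 to 5, so replicate 2 was the array with a median above 0. Over 10 neuronal markers the median was -0.31, 0.13, -0.37, -0.25 and -0.27, with 9 of 10 means below 0 and a summed signal of 77798 to 118371 in kaolin and 92516 to 123261 in saline. The part of the neuronal markers in the guidance values was not tested. Median means of the other marker lists were 0.10 for astrocytes, 0.07 for oligodendrocyte precursors, 0.02 for endothelium, 0.04 for pericytes, -0.53 for choroid plexus and -0.24 for hippocampal and striatal neurons. The summed choroid plexus signal was 938 to 3554 in kaolin and 1436 to 55039 in saline, with 4 of 6 tested markers well above background throughout. Its marker Ttr gave -4.11, -1.89, -4.29, -3.85 and -0.12 on replicates 1 to 5. The part of unequal choroid plexus content in the guidance values was not tested.

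Without replicate 2, 22 member probes had an unadjusted p under 0.05 (27.8%, against 31.4% of all). Of these, 19 were lower (24.1%, against 16.4% of all), and 3 were higher (3.8%, against 15.1% of all). Means were then below 0 for 58 of 79 members (73.4%), against 51% of all tested probes. The lean towards lower values was thus larger without that array.

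**Figure D4:**
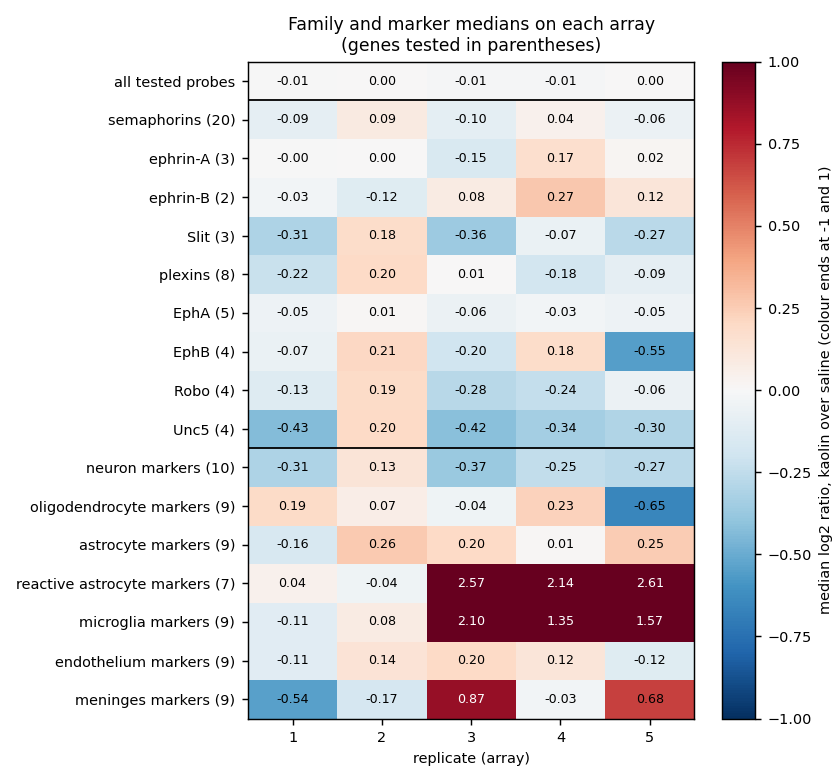
Median log2 ratio of kaolin over saline on each replicate (columns) for guidance families and cell type markers (rows), printed in each cell and coloured from blue, below 0, to red, above 0. Slit, Robo, EphA and Unc5 medians are negative on every array but replicate 2, as is the neuron marker median, though the EphA medians lie close to 0. The EphB median is lowest on replicate 5, as are those of oligodendrocyte and endothelial markers.

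The other genes of the pathway gave 0 calls at an adjusted p under 0.05 (limma). Of 15 tested co-receptors, 1 was higher (6.67%, against 8.82% of all tested probes) and 0 lower (against 9.32%) at an unadjusted p under 0.05, with a median of -0.06. That share is no higher than over all probes. The higher one was Ptk7, a co-receptor of plexins and Wnt receptors, at 0.32 ± 0.23 (n = 5; limma adjusted p = 0.243). Of 23 other guidance ligands and receptors, 1 was higher and 1 lower (4.35% each, also below the shares of all probes). Ryk, a receptor of Wnt5a, was higher on every array at 0.23 ± 0.11 (n = 5; limma adjusted p = 0.243). Rtn4rl1, a homologue of the Nogo receptor, was lower at -0.29 ± 0.28 (n = 5; limma adjusted p = 0.253).

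Of 45 intracellular effectors, 5 were higher (11.1%, against 8.82% of all tested probes) and 6 lower (13.3%, against 9.32%) at an unadjusted p under 0.05, with a median of -0.03. These shares are near those of all probes, and the genes are given as examples. Higher ones were the small GTPases Cdc42 (0.25 ± 0.13, n = 5) and Rhoa, the collapsin response mediator Dpysl4 (0.33 ± 0.22, n = 5), the semaphorin effector Mical1 (0.31 ± 0.24, n = 5) and the kinase Fes (0.62 ± 0.58, n = 5). Fes is also expressed in myeloid cells, and gave -0.15, 0.22, 1.28, 0.86 and 0.90, high on the arrays where microglial markers were high. Lower ones included the cytoskeletal kinase Rock2 (-0.43 ± 0.38, n = 5), the EphA4 effector Chn1 (-0.37 ± 0.33, n = 5), Dpysl2 (-0.32 ± 0.29, n = 5), Enah and Dpysl5. Rock2 was below 0 on every array, though by 0.01 on replicate 2. Fes was picked out after its values were seen, and the part of microglia in them was not tested.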

How the data were processed

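Total RNA ratios come from 5 arrays that each pair a kaolin with a saline sample, per the labels. The scanner text files name Agilent Feature Extraction, version 10.1.1.1. They list, per the file headers, raw spot and local background intensity for both channels, intensity after the software's own background and dye correction, and spot flags of 0 or 1. They also list the software's own ratio as log10 of red over green, per the file headers. Log2 ratios make up the deposited series matrix. Its columns correlated with the scanner ratios at -1.00 to -0.978 across probes, which gives them the direction of Cy3 over Cy5. Its column medians were 0.02, -0.05, -0.02, 0.09 and -0.10. On each array 84.77% to 87.67% of its values equalled the software's ratio, turned in sign and put on the log2 scale. The series matrix and the software's log ratio are thus largely the same alternative below. The sources used here do not state how the authors normalized the matrix.

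Outlier spots (86 to 147 per array) were left out, and no spot was saturated. Signals were corrected by normexp (offset 50) and normalized by loess within arrays, with control spots at no weight, and spots of a probe were averaged. Log2 ratios of kaolin over saline were tested against 0 with limma 3.58.1 in R 4.3.3 (data.table, version 1.17.8), two-sided, and p-values were adjusted over the 29114 tested probes by Benjamini-Hochberg (threshold 0.05). A gene is its brightest tested probe. Where several tested probes exist, the others are given too, except for Efna3, Epha1, Epha6, Ephb6, Sema3c and Sema3d. Of these, Epha1, Sema3c and Sema3d had probe means of both signs. Values on each array are given for genes with an unadjusted p under 0.05, the smallest p of each family in each direction, the 6 largest means in each direction and a fixed panel. Members and lists were chosen with earlier results of these data known. Alternatives changed background correction, normalization, filter, array weights, slide and probe choice, and left out each array. Probe positions are the array file's, on rn4, where gene models were not used here, so no exon or UTR is named.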

Additional observations from a re-analysis of the deposited data

Results flagged for a closer look

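Of 79 member probes, 4 had 1 of the 5 arrays far from the others by Dixon's test at its 95% critical value of 0.71, which chance passes in about 1 of 20 groups. That share, 5.06%, is close to chance and to the 5.16% of all tested probes. Ephb2 was -0.31 on replicate 5 and 0.14 to 0.25 on the others by its brightest probe, while its second tested probe was 0.05 on replicate 5. Plxna3 was 0.20 on replicate 2 and -0.19 to -0.12 on the others. The Sema6a probes at lower coordinates were 0.10 and 0.08 on replicate 2, against -0.80 to -0.56 and -0.65 to -0.46 on the other arrays.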

How the results depend on the processing

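The number of calls varied with array weights, with leaving out replicate 2 and with the normalization. Leaving out 1 array at a time gave 0 to 1536 tested probes past the adjusted threshold (the highest without replicate 2), with 0 to 3 member probes. Unadjusted counts of members were then 0 to 3 higher (0% to 3.8%, against 3.29% to 15.1% of all). They were 3 to 19 lower (3.8% to 24.1%, against 3.7% to 16.4%). Counts of 1 sign on every array were 2 to 4 higher (2.53% to 5.06%, against 7.09% to 18.4%). They were 3 to 25 lower (3.8% to 31.6%, against 7.78% to 18.9%). Array weights ran from 0.461 for replicate 2 to 2.38 for replicate 4. They called 3483 of 29114 probes and 7 of 79 member probes (2 of Sema6a, 2 of Sema3b and 1 each of Slit2, Ntn3 and Unc5c). Unadjusted, 6 members were then higher and 18 lower (7.59% and 22.8%, against 16.8% and 19.4% of all). Turning the sign of replicate 2, an alternative chosen after seeing the data, called 489 of 29114 probes and 1 of 79 member probes (Unc5d). Unadjusted, 3 members were then higher and 23 lower (3.8% and 29.1%, against 14.6% and 15.5% of all). On every array 22 were lower (27.8%, against 12.2% of all), which by construction is the replicate 2 pattern given above and adds nothing to it. Median centring called 22 probes and no member, with 0 higher and 20 lower unadjusted (0% and 25.3%, against 4.27% and 25.6% of all), and 1 higher and 8 lower on every array (against 3.62% and 17.6% of all). Unadjusted higher counts were 3 (3.8%) without background subtraction, with offset 0 and on processed signals, against 9.97%, 9.21% and 9.64% of all. They were 4 on the software's log ratios and on the series matrix (5.06%, against 8.97% of all in both). With no filter they were also 4 (4.55%, against 7.64%), as with slide as a random block (5.06%, against 12.3%). The slide block gave 9 lower (11.4%, against 13.7%). Without background subtraction 1 member was higher on every array (1.27%, against 7.3% of all). Of 55 genes, 20 changed sign under at least 1 of up to 17 alternatives. The EphA and ephrin-A medians changed sign under several, the ephrin-B median with no filter and the EphB median without replicate 5. Each array pairs a kaolin with a saline sample in 1 ratio, so the test of these ratios against 0 is already paired. Precision is limited by 5 arrays, and values of dim probes such as Robo3 move with the background offset.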

Other observations

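Some guidance genes carry another name in the array file and so lie outside the name rule. Epha4, a receptor of both ephrin classes, had 3 such tested probes with means of 0.08, -0.11 and -0.43. The lowest gave -0.67, 0.29, -0.60, -0.60 and -0.57 on replicates 1 to 5 (mean -0.43 ± 0.41, n = 5; limma unadjusted p = 0.0243, adjusted p = 0.244), below 0 on 4 arrays and above it on replicate 2. Ntn4, a netrin of vessels and basement membranes, gave 0.08, -0.03, 0.02, -0.09 and 0.17, a mean of 0.03 ± 0.10 (n = 5), and Epha10 had a mean of 0.12 ± 0.25 (n = 5).

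From members that lie near each other on rn4, 6 pairs were picked, and other members lie as close as some of these. Robo3 and Robo4, whose probes lie 5.91 kb apart on chromosome 8, had means of -0.24 and 0.04, with Robo3 above Robo4 on 1 of 5 arrays. Efna1 and Efna3, 47.4 kb apart on chromosome 2, had means of 0.15 and -0.08, with Efna1 above Efna3 on 4 of 5 arrays. Sema3b and Sema3f, 89.5 kb apart on chromosome 8, had means of 0.46 and -0.15, with Sema3b above on 4 of 5 arrays. The more distant of the 6 pairs lie on chromosome 4. Epha1 and Ephb6 had means of -0.0026 and 0.03, with Epha1 above on 3 of 5 arrays. Sema3a, which lies between Sema3e and Sema3d, had a mean of -0.12. It was above Sema3e (mean 0.07) on 1 of 5 arrays, and Sema3d (mean 0.03) was above it on 5 of 5. None of these differences was tested.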
